A study of Mus musculus with 20 samples.

Results

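T cells and natural killer (NK) cells are marked by transcripts of their receptors and their killing machinery, and 10 of these were followed here through macrophages and monocytes sorted from mouse tumours. The genes are Cd3e, Cd3g and Cd8a, which encode parts of the T cell receptor complex and its CD8 co-receptor, Gzma, Gzmb, Prf1 and Nkg7 of the cytotoxic granule, Klrd1 and Ncr1, which encode receptors of NK cells, and the cytokine gene Ifng. They were taken by symbol, through the Entrez number of each gene model, from the 36528 gene models counted in each library, and all 10 were among the 15390 genes kept by a filter on low counts. The tumours were of MC38, a transplantable colon carcinoma line of the mouse, and RNA was taken 7 days after treatment began. There were 5 libraries each of macrophages from tumours treated with an antibody to PD-L1 (labelled aPDL1), macrophages from control tumours, monocytes from anti-PD-L1 tumours and monocytes from control tumours, 20 in all. PD-L1 is the ligand through which tumour and myeloid cells restrain T cells by the receptor PD-1. The labels give neither strain, age and sex nor what control tumours received, and they do not name the markers used in the sort.

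Cytotoxic T cells and NK cells kill by releasing perforin, which opens the membrane of a target cell, together with granzymes, proteases that enter it and start cell death. The same cells secrete interferon-gamma, the product of Ifng, which binds a receptor on macrophages and monocytes and induces a set of genes in them. Cxcl9 is one of these induced genes, and its product attracts T cells and NK cells that bear the receptor CXCR3. Ifng and Cxcl9 thus sit at the 2 ends of a known signalling route, and the design allows asking whether lymphocyte transcripts and Cxcl9 move together. Lymphocyte transcripts in a sorted myeloid library need not follow the lymphocytes of the tumour, so this does not test the route.

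To show the control regions of the cytotoxic granule genes, which moved together from library to library, their promoters are given from RefSeq on GRCm38.p6. Each runs from 250 bases before to 50 bases after a start site, 5′ to 3′ on the gene's strand. For Prf1 this start site lies inside the gene, after the gene start given further on. The capitals mark TGTGGT, the core letters bound by RUNX factors of T and NK cells, or its reverse complement ACCACA.
Gzma (chr13:113100932-113101231, minus strand): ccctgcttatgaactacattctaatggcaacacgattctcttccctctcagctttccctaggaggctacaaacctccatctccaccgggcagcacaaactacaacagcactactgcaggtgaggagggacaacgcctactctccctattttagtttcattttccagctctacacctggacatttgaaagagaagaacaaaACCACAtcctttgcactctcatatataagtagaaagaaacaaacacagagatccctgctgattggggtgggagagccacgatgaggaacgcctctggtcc
Gzmb (chr14:56262285-56262584, minus strand): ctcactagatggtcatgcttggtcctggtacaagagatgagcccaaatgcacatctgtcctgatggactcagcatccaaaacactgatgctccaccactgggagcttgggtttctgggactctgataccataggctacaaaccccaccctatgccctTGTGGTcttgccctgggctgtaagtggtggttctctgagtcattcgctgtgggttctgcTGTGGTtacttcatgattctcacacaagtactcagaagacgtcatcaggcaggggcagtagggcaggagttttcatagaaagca
Prf1 (chr10:61297586-61297885, plus strand): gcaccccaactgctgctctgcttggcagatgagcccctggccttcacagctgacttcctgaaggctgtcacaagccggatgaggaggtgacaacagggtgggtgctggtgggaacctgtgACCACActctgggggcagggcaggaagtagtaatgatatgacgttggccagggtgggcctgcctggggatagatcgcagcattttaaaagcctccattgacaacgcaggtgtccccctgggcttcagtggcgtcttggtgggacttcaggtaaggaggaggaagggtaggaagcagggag
Nkg7 (chr7:43436888-43437187, plus strand): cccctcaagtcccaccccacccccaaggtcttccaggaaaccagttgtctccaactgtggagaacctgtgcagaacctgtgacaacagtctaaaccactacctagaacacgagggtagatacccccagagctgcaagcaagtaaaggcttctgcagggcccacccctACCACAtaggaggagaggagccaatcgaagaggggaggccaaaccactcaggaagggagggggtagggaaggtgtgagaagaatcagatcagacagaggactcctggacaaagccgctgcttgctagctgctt
A match was present in each of these 4 promoters, and Gzmb held 2. A promoter was in the table for 9 of the 10 genes. Among the others the letters were found in Ncr1 and not in Cd3e, Cd3g, Cd8a or Ifng. Both strands were searched, and 16.8% of 32851 mouse promoters of this length hold the letters. The promoter of Cxcl9 held 1 match as well. The same search for TTCNNNGAA, the letters of an interferon-gamma-activated site (GAS), found a match in Gzmb, Nkg7 and Ifng, against 8.30% of all promoters. TGANTCA, the letters of an AP-1 site, were found in Gzmb and Cxcl9 (7.81% of all promoters) and GGTGTGA, a site of T-box factors, in Nkg7 (3.98%). No match of one motif shared a base with a match of another. These matches describe the sequence and say nothing of binding.

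The transcripts were detected at low levels. Raw counts ran from 0 for Ifng in 1 library to 1098 for Gzma in another, out of 30191509 to 36514133 counts per library. CPM, the count relative to the scaled size of its library, is used below for levels of 1 gene between libraries. The mean level of Ifng lay above 5.91% of the tested genes, that of Gzmb above 36.3%, and the other 8 genes lay between. Per kilobase of transcript, in the authors' deposited nRPKM averaged over the 20 libraries, Gzma was highest at 7.10, followed by Gzmb at 5.23, Nkg7 at 2.90 and Klrd1 at 2.01. Cd3g followed at 1.03 nRPKM and Prf1 at 0.688 nRPKM. Ncr1 at 0.328 nRPKM, Cd3e at 0.308, Ifng at 0.279 and Cd8a at 0.267 had the lowest averages. These are levels in bulk RNA, in which fewer lymphocytes and less RNA per lymphocyte cannot be told apart. Which cells in the libraries made the transcripts was not tested.

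The sorted cells carried their own defining markers. The summed level of 10 macrophage markers was 27358 to 34913 CPM in anti-PD-L1 macrophages and 21145 to 31415 CPM in control macrophages, against 7497 to 9575 CPM in anti-PD-L1 monocytes and 6447 to 9825 CPM in control monocytes. The summed level of 9 monocyte markers was 218 to 430.3 CPM in anti-PD-L1 macrophages and 204 to 438 CPM in control macrophages. It was 7343 to 10385 CPM in anti-PD-L1 monocytes and 4384 to 9502 CPM in control monocytes. The sample numbers in the labels put every control library before every treated one, so treatment and an effect of this order cannot be told apart. Each treated or control macrophage library has a monocyte library with a neighbouring sample number. Across all genes the 2 libraries of such a pair deviated from their group means in the same direction, with correlations of 0.217 to 0.722 over 10 pairs.

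**Figure D1:**
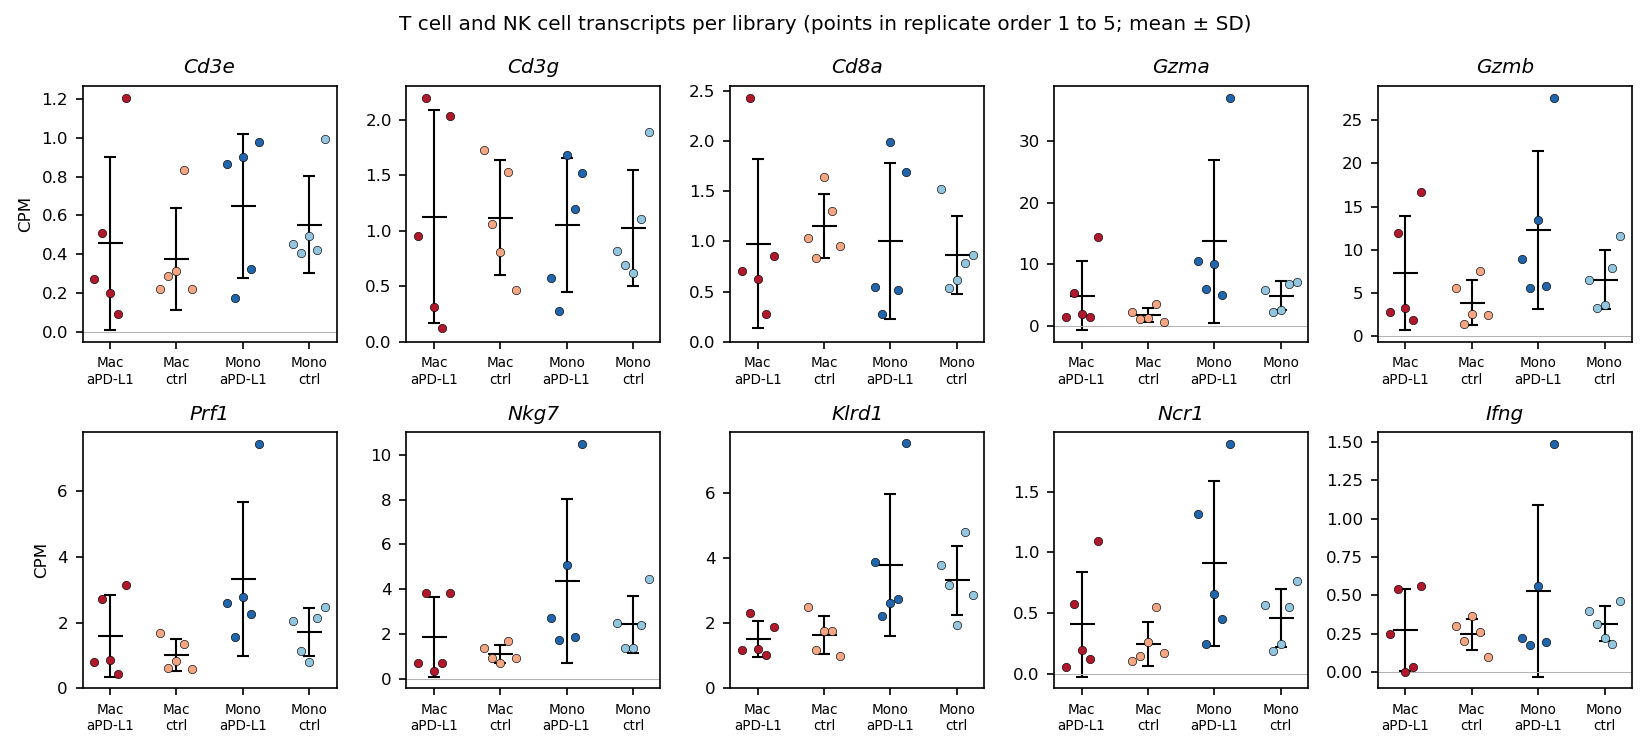
CPM of each of the 10 genes (linear axis, one panel a gene) in macrophages (Mac) and monocytes (Mono) of anti-PD-L1 and control tumours; points are the 5 libraries in order of replicate number and the bars are mean ± SD. Gzma reaches 37.1 CPM in 1 anti-PD-L1 monocyte library while the other 4 lie between 4.94 and 10.5 CPM, and treated and control libraries overlap for all 10 genes.

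The granzyme genes varied widely between libraries. Gzma (Entrez 14938, chromosome 13, 113093824 to 113100981 on GRCm38), which encodes a protease of the granule, had 1.41, 5.24, 1.81, 1.33 and 14.4 CPM in anti-PD-L1 macrophages 1 to 5, against 2.21, 1.12, 1.17, 3.55 and 0.564 CPM in control macrophages 1 to 5. It had 10.5, 6.01, 9.94, 4.94 and 37.1 CPM in anti-PD-L1 monocytes, against 5.72, 2.25, 2.52, 6.79 and 7.12 CPM in control monocytes. Library 5 was the highest of both treated groups, treated macrophages 2 and 5 lay above every control macrophage library, and the other 3 lay among the controls. In monocytes the treated libraries 1, 3 and 5 lay above every control library. Gzmb (Entrez 14939, chromosome 14, 56258836 to 56262334), a granzyme that activates caspases, had 2.80, 11.9, 3.22, 1.91 and 16.7 CPM in anti-PD-L1 macrophages, against 5.60, 1.35, 2.50, 7.51 and 2.48 CPM in control macrophages. In anti-PD-L1 monocytes Gzmb had 8.88, 5.52, 13.5, 5.84 and 27.6 CPM, against 6.45, 3.23, 3.64, 7.84 and 11.6 CPM in control monocytes. Treated macrophages 2 and 5 and treated monocytes 3 and 5 lay above every control library of their cell type, and the groups overlapped through the others. The gene body of Gzma overlaps Cdc20b, and the strand setting of the counting is not given, so its counts could hold reads of that gene; Cdc20b itself had 0 to 5 counts per library. Granzyme genes share sequence, and unique alignment can drop or shift reads between them, so levels of Gzmb in particular are uncertain.

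The perforin gene Prf1 (Entrez 18646, chromosome 10, 61297751 to 61304684) had 0.815, 2.70, 0.876, 0.432 and 3.15 CPM in anti-PD-L1 macrophages, against 1.69, 0.632, 0.835, 1.36 and 0.588 CPM in control macrophages. In anti-PD-L1 monocytes it had 2.60, 1.56, 2.77, 2.26 and 7.43 CPM, against 2.06, 1.13, 0.792, 2.13 and 2.48 CPM in control monocytes. Treated monocyte 5 stood apart from the other 4 of its group, which lay between 1.56 and 2.77 CPM. Nkg7 (Entrez 72310, chromosome 7, 43437138 to 43438246), a membrane protein of the granule, had 0.707, 3.82, 0.367, 0.71 and 3.86 CPM in anti-PD-L1 macrophages, against 1.37, 0.949, 0.704, 1.70 and 0.956 CPM in control macrophages. In anti-PD-L1 monocytes it had 2.73, 1.74, 5.11, 1.87 and 10.5 CPM, against 2.51, 1.38, 1.41, 2.42 and 4.47 CPM in control monocytes. Treated macrophages 2 and 5 exceeded the highest control macrophage library and the other 3 treated ones lay below the median of the controls.

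The NK receptor genes differed in how far they varied. Klrd1 (Entrez 16643, chromosome 6, 129588092 to 129598775), which encodes CD94, the partner chain of NKG2 receptors, had 1.17, 2.30, 1.22, 1.02 and 1.89 CPM in anti-PD-L1 macrophages, against 2.51, 1.18, 1.75, 1.76 and 1.0 CPM in control macrophages. In anti-PD-L1 monocytes it had 3.88, 2.22, 2.62, 2.74 and 7.53 CPM, against 3.78, 3.16, 1.95, 4.81 and 2.88 CPM in control monocytes. All 10 monocyte libraries but 1 lay at or above 2.22 CPM, and all 10 macrophage libraries lay between 1.0 and 2.51 CPM. Ncr1 (Entrez 17086, chromosome 7, 4337715 to 4345184), which encodes the activating receptor NKp46, had 2 to 37 counts per library in anti-PD-L1 macrophages, against 4 to 19 in control macrophages. It had 7 to 56 counts in anti-PD-L1 monocytes, against 6 to 23 in control monocytes. Its highest library was again treated library 5 in both cell types, at 1.09 CPM in macrophages and 1.89 CPM in monocytes.

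The T cell receptor genes were low in all groups. Cd3e (Entrez 12501, chromosome 9, 44998735 to 45009663), a signalling chain of the receptor complex, had 0.272, 0.507, 0.198, 0.0927 and 1.21 CPM in anti-PD-L1 macrophages, against 0.219, 0.287, 0.313, 0.837 and 0.221 CPM in control macrophages. In anti-PD-L1 monocytes it had 0.866, 0.174, 0.903, 0.323 and 0.980 CPM, against 0.451, 0.407, 0.495, 0.421 and 0.994 CPM in control monocytes. The highest libraries were treated macrophage 5 and treated monocyte 5, which have neighbouring sample numbers, and control macrophage 4 and control monocyte 5, which have them too. Each value rests on 3 to 41 counts. Cd3g (Entrez 12502, chromosome 9, 44969572 to 44980431), the gamma chain of the same complex, had 4 to 69 counts over the 20 libraries. Its highest treated libraries were macrophage 2 at 2.20 CPM and monocyte 3 at 1.68 CPM. Cd8a (Entrez 12525, chromosome 6, 71373427 to 71379171), which marks cytotoxic T cells and some dendritic cells, had 8 to 72 counts and was highest in the same 2 libraries, at 2.43 and 1.99 CPM. These 2 libraries, treated macrophage 2 and treated monocyte 3, have neighbouring sample numbers. Cd8b1, the partner chain of Cd8a in T cells, was low too, at 0.0927 to 0.946 CPM in anti-PD-L1 macrophages and 0.300 to 0.704 CPM in control macrophages.

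Ifng (Entrez 15978, chromosome 10, 118441046 to 118445894) was at the limit of detection, with 9, 16, 0, 1 and 19 counts in anti-PD-L1 macrophages 1 to 5, against 11, 7, 14, 9 and 4 counts in control macrophages. In anti-PD-L1 monocytes it had 7, 5, 18, 6 and 44 counts, against 14, 10, 9, 7 and 14 counts in control monocytes. Treated macrophage 3 held 0 counts, which allows up to 3 counts or 0.0850 CPM at its depth, and this limit covers counting error only. The libraries with the fewest Ifng counts, treated macrophages 3 and 4, had 1695 and 1909.6 CPM of Cxcl9.

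Anti-PD-L1 treatment did not change any of the 10 genes past the test in either cell type. Each log2 fold change has its standard error (SE) from edgeR's quasi-likelihood fit, and a gene was called at a Benjamini-Hochberg adjusted p under 0.05 over all tested genes. In macrophages 0 of 10 were called, where 4.65% of all tested genes were called, and 1 of 10 had an unadjusted p under 0.05. Of all genes tested 48.3% had a log2 fold change above zero, with a median of -0.01. The 10 genes had a median of 0.46, with 8 above zero and 2 below. With neighbouring libraries as a block (limma-voom), a fit described further on, 5 were above zero and 5 below, with a median of 0.07, Gzma at 1.09 and Ifng at -0.78, and 0 were called. In edgeR's fit Gzma had the highest fold change, 1.49 (SE 0.70, adjusted p = 0.20), followed by Gzmb at 0.91 (SE 0.61, adjusted p = 0.40). At the other end Cd8a had -0.25 (SE 0.52, adjusted p = 0.82) and Klrd1 -0.12 (SE 0.35, adjusted p = 0.88). In monocytes 0 of 10 were called, where 25.3% of all tested genes were called, and again 1 had an unadjusted p under 0.05. All 10 fold changes were above zero there, as were 52.0% of all tested genes, with a median of 0.80 against 0.02 over all genes. In the block fit 8 of 10 were above zero, with a median of 0.49. The 10 genes share their libraries and vary together, so their signs are not 10 separate observations. Gzma stood at 1.49 (SE 0.68, adjusted p = 0.11) in monocytes, Ncr1 at 0.98 (SE 0.66, adjusted p = 0.28) and Prf1 at 0.96 (SE 0.51, adjusted p = 0.18), while Cd3g stood at 0.05 (SE 0.60, adjusted p = 0.96).

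For none of the 10 genes did the treated libraries of a cell type lie wholly above or below the control libraries, where 6.90% of all tested genes did so in macrophages and 7.23% in monocytes. The fold changes of the 4 granule genes were smaller by more than 1.5 times without library 5 of the treated group. Without treated macrophage 5, Gzma had a log2 fold change of 0.54 and Ncr1 of -0.04 in macrophages. Without treated monocyte 5, Gzma had 0.67, Nkg7 0.22 and Ifng -0.13 in monocytes. The treatment effects on the 10 genes were not shown to differ between the cell types: 0 of 10 differences were called, the lowest unadjusted p being 0.53, and edgeR called 0% of all genes for such a difference, 980 having an unadjusted p under 0.05. DESeq2 called 7 genes and limma-voom with neighbouring libraries as a block 8. In edgeR's fit 9 of the 10 differences were below zero, as were 53.4% of all tested genes. Their median was -0.19 against -0.02 over all genes. Those for Gzma and Gzmb were near zero, with SEs of 0.97 and 0.86. In the block fit all 10 were below zero, with a median of -0.47 against -0.01 over all genes, and 0 were called.

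Macrophage libraries held less Klrd1 than monocyte libraries in treated and in control tumours and, with neighbouring libraries paired, also less Gzma and Nkg7. Klrd1 was lower in macrophages of anti-PD-L1 tumours, at 1.52 ± 0.55 CPM against 3.80 ± 2.18 CPM in monocytes (SD, n = 5 each, log2 fold change -1.35, SE 0.35, edgeR adjusted p = 0.0030). It was also lower in macrophages of control tumours, at 1.64 ± 0.59 CPM against 3.32 ± 1.06 CPM (SD, n = 5 each, log2 fold change -1.03, SE 0.35, edgeR adjusted p = 0.021). It was the only one of the 10 genes called in these comparisons, in which 53.9% of all tested genes were called in anti-PD-L1 tumours and 44.1% in control tumours, 25.7% and 20% as lower in macrophages. Gzma had a fold change of the same size or larger with a wider error, -1.52 (SE 0.68, adjusted p = 0.066) in anti-PD-L1 tumours and -1.52 (SE 0.70, adjusted p = 0.085) in control tumours. Cd3g, at 0.07 and 0.11, and Cd8a, at -0.07 and 0.40, were near zero or above it.

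The neighbouring sample numbers allowed the same comparison within pairs of libraries. Gzma, Gzmb, Prf1, Nkg7, Klrd1 and Ncr1 were each lower in the macrophage library than in the monocyte library of its pair in 10 of 10 pairs, Cd3e in 9, Ifng in 8 and Cd3g in 6. Cd8a was lower in macrophages in 1 of 10 pairs, and Cxcl9 in 0 of 10. The share of all tested genes lower in 10 of 10 pairs was not counted, so these directions do not set the 10 genes apart. With neighbouring libraries as a block (limma-voom), 7 of the 10 genes were lower in macrophages of anti-PD-L1 tumours, where 66.3% of all tested genes were called, 31.9% as lower. Gzma stood at -1.79 (adjusted p = 0.00034), Nkg7 at -1.53 (adjusted p = 0.0015), Ncr1 at -1.52 (adjusted p = 0.0063) and Ifng at -1.50 (adjusted p = 0.024), together with Prf1, Klrd1 and Gzmb. In control tumours the block fit called 3 genes as lower, where 60.2% of all tested genes were called and 27.9% as lower. These were Gzma at -1.65 (adjusted p = 0.0065), Klrd1 at -1.04 (adjusted p = 0.00083) and Nkg7 at -1.03 (adjusted p = 0.030). Cd3e, Cd3g and Cd8a were called in neither. Without treated macrophage 5 and without the block, 5 genes were called in anti-PD-L1 tumours, Gzma (-2.49), Prf1, Nkg7, Klrd1 and Ncr1. Fits that left out 1 library called 7721 to 8643 of all tested genes in this comparison, so this count does not set the 10 genes apart.

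**Figure D2:**
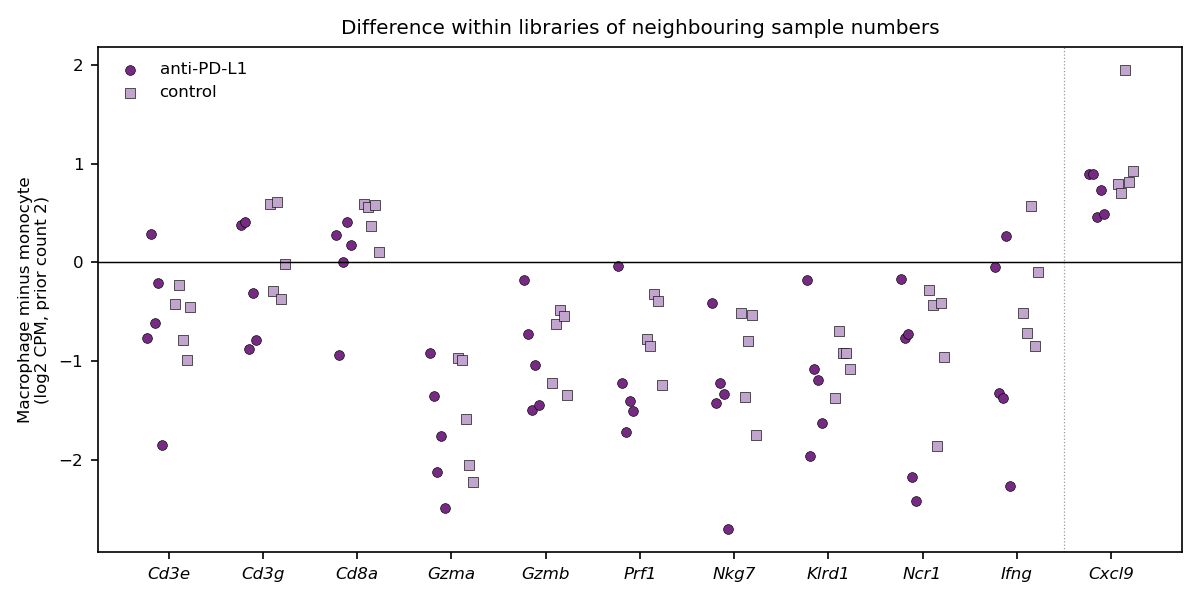
Log2 CPM of each gene in a macrophage library minus that in the monocyte library of neighbouring sample number, in anti-PD-L1 (circles) and control tumours (squares), 5 pairs each; the line marks equal levels. For Gzma the differences run from -2.49 to -0.92 in anti-PD-L1 tumours and from -2.23 to -0.97 in control tumours, while Cxcl9 lies above the line in all 10 pairs.

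The level of the 10 genes was shared within a pair. The correlation between neighbouring libraries, estimated with limma's duplicateCorrelation after removing group means, was 0.935 for Gzmb, 0.897 for Cd8a, 0.886 for Gzma and 0.867 for Cd3g, and lowest for Klrd1 at 0.547. Its median over the 10 genes was 0.807, against 0.527 over all tested genes, of which 14.9% exceeded the median of the 10. Among anti-PD-L1 tumours the highest macrophage and the highest monocyte library were neighbours for 9 of the 10 genes, against 36.6% of all tested genes. Among control tumours this held for 7 of 10 genes, against 49.0%. Treated macrophage 5 and treated monocyte 5 are such neighbours, as are control macrophage 4 and control monocyte 5. Whether neighbouring libraries come from one tumour is not given in the sources used here.

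Summed over the 10 genes, levels were 9.13, 32.2, 8.82, 6.05 and 45.8 CPM in anti-PD-L1 macrophages 1 to 5, against 16.8, 7.76, 10.4, 20.4 and 7.50 CPM in control macrophages. In anti-PD-L1 monocytes the sums were 32.1, 18.2, 39.7, 20.3 and 97.7 CPM, against 24.3, 13.3, 12.5, 27.0 and 33.6 CPM in control monocytes. The means were 20.4 ± 17.7 and 12.5 ± 5.74 CPM in anti-PD-L1 and control macrophages and 41.6 ± 32.6 and 22.1 ± 9.08 CPM in anti-PD-L1 and control monocytes (SD, n = 5 each). Control monocytes and anti-PD-L1 macrophages, neighbours in this order, differed by less than their spread, and the ranges of all 4 groups overlapped. Treated macrophages 2 and 5 were the 2 highest of their group for each of the 10 genes, and treated monocyte 5 was the highest of its group for 8.

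Cxcl9 (an interferon-gamma-induced chemokine gene) was far more abundant and followed another order across the groups. It had 1849, 1647, 1695, 1909.6 and 1371 CPM in anti-PD-L1 macrophages, against 1494, 1204, 1553, 972 and 699 CPM in control macrophages. In anti-PD-L1 monocytes it had 1210.3, 1393, 883, 1111 and 739 CPM, against 821, 696, 398, 387 and 596 CPM in control monocytes. Across the groups Cxcl9 was higher in macrophages than in monocytes and the lymphocyte sum was lower, so these 2 measures did not share an order of groups. Cxcl10 and Irf1 did not go with Cxcl9 in this. Cxcl10 averaged 610 ± 108 CPM in anti-PD-L1 and 533 ± 172 CPM in control macrophages (SD, n = 5 each). It averaged 1394 ± 289 CPM in anti-PD-L1 and 906 ± 353 CPM in control monocytes (SD, n = 5 each), higher than in macrophages, as the lymphocyte sum was. Irf1 averaged 581 ± 125 and 389 ± 47.7 CPM in anti-PD-L1 and control macrophages, and 1487 ± 274 and 873 ± 209 CPM in anti-PD-L1 and control monocytes (SD, n = 5 each). Within a cell type Cxcl9 and the lymphocyte sum had their higher mean in the treated group. The median of the lymphocyte sum did so in monocytes only, at 32.1 CPM in anti-PD-L1 and 24.3 CPM in control monocytes. In macrophages it was lower in the treated group, at 9.13 CPM against 10.4 CPM. The mean log2 CPM of 32 interferon-gamma response genes, which include Cxcl9, Cxcl10 and Irf1, was 8.26 ± 0.23 in anti-PD-L1 and 7.65 ± 0.25 in control macrophages. It was 8.76 ± 0.27 in anti-PD-L1 and 7.90 ± 0.29 in control monocytes (SD, n = 5 each), so that its means too were higher in monocytes. The summed CPM of these genes had the order of Cxcl9 between cell types. Its medians were 52732 CPM in anti-PD-L1 and 35557 CPM in control macrophages, against 40033 and 24758 CPM in anti-PD-L1 and control monocytes.

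Inside both treated groups the library richest in lymphocyte transcripts was the poorest in Cxcl9. Treated macrophage 5 had the highest sum, 45.8 CPM, and the lowest Cxcl9, 1371 CPM, of its group, and treated macrophage 4 had the lowest sum and the highest Cxcl9. Treated monocyte 5 had the highest sum, 97.7 CPM, and the lowest Cxcl9, 739 CPM, and treated monocyte 2 had the lowest sum and the highest Cxcl9. The interferon-gamma response genes ranked these 4 libraries in the same way as Cxcl9. Treated macrophage 5 and treated monocyte 5 have neighbouring sample numbers, as do treated macrophage 4 and treated monocyte 2. The macrophage and monocyte groups are therefore not separate observations of this order. Control groups showed no such order: control macrophage 5 was the lowest in both measures, and control monocyte 5 had the highest sum with the third highest Cxcl9 of its group.

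**Figure D3:**
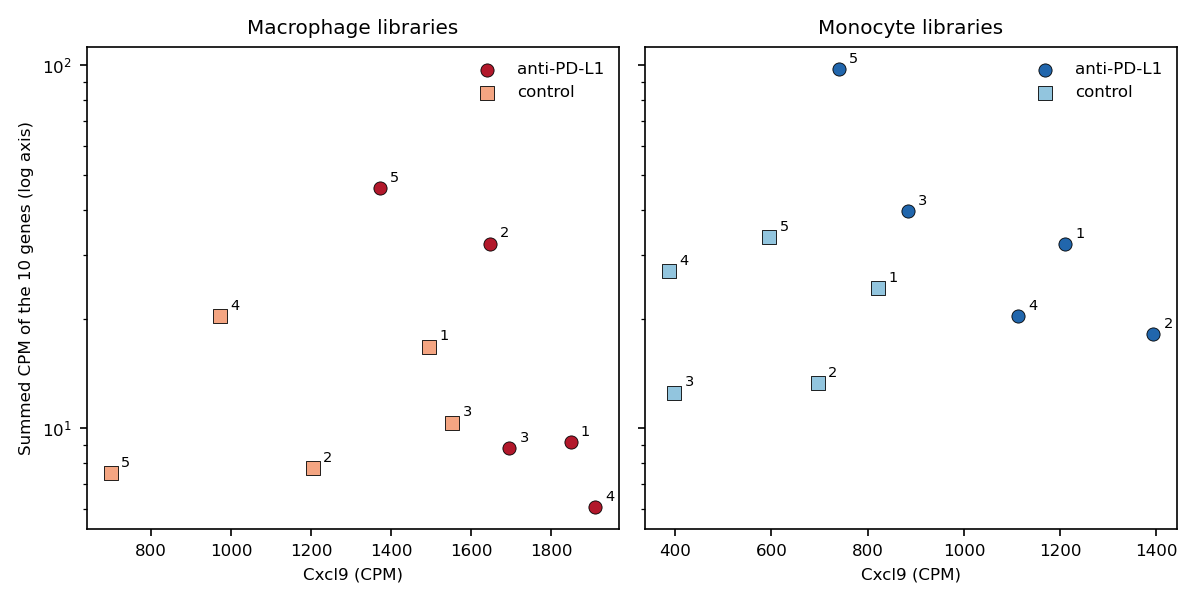
Summed CPM of the 10 genes (log axis) against CPM of Cxcl9 in macrophage (left) and monocyte libraries (right); each point is 1 library with its replicate number, circles anti-PD-L1 and squares control. Library 5 of each treated group sits at the upper left of the treated points, with sums of 45.8 and 97.7 CPM and Cxcl9 of 1371 and 739 CPM.

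A slope on Cxcl9 fitted among libraries of the same group tested this for each gene. It gives the log2 change of a gene for 1 log2 unit more Cxcl9, with group means removed, over 20 libraries. None of the 10 slopes was called by edgeR (0 of 10 with an unadjusted p under 0.05), where 0.0065% of all genes, 1 gene of 15389, was called. All 10 slopes were below zero, as were 51.3% of all slopes, with a median of -0.77 against -0.01 over all genes. Gzma had -1.18 (SE 0.67, adjusted p = 0.63), Nkg7 -1.06 (SE 0.60, adjusted p = 0.63), Gzmb -1.03 (SE 0.61, adjusted p = 0.64), Ncr1 -1.01 (SE 0.67, adjusted p = 0.66) and Cd3e -0.98 (SE 0.60, adjusted p = 0.64). The slopes of Ifng at -0.49 (SE 0.77) and Klrd1 at -0.19 (SE 0.35) were smaller. The 10 genes share their libraries and vary together, so 10 slopes of one sign are not 10 separate observations.

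The slopes were nearer zero without the treated pair of libraries 5. With both left out, 7 of 10 were below zero, with a median of -0.19. Cd3e had -0.52, Nkg7 -0.42, Gzmb -0.39, Ncr1 -0.31, Cd3g -0.25, Cd8a -0.14 and Gzma -0.11, while Ifng stood at 0.48, Klrd1 at 0.26 and Prf1 at 0.13, and 0 of 10 were called. With neighbouring libraries as a block, 8 of 10 slopes were below zero, with a median of -0.31. In macrophages alone the slope was -1.31 for Gzma, 0.46 for Klrd1 and 0.09 for Cd8a, and in monocytes alone it was -1.12 for Gzma, -0.55 for Klrd1 and -0.54 for Cd8a. Other interferon-induced measures in place of Cxcl9 gave slopes of Gzma of -2.27 on the mean of the interferon-gamma response genes and -0.69 on Cxcl10, neither of them called. On Cxcl10, another chemokine gene, Klrd1 had -0.65 (edgeR adjusted p = 0.030) and was the only one of the 10 called, where 37.6% of all genes were called. Control macrophage 1 and control monocyte 4, which have neighbouring sample numbers, had the lowest Cxcl10 of their groups, at 266.6 and 391.9 CPM. They also had the highest Klrd1 of their groups, at 2.51 and 4.81 CPM. The fit on Cxcl10 was run without a block and with all 20 libraries, so the weight of this pair was not tested. On the response genes 0 of 10 were called, where 0.339% of all genes were.

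The interferon-induced genes Cxcl10 and Irf1 had slopes above zero on Cxcl9 that did not pass the test. The gene called on Cxcl9 among all tested was Fgl2, with a slope of 0.71 (SE 0.10, edgeR adjusted p = 0.032). Cxcl10 had 0.51 (SE 0.26, adjusted p = 0.61) and Irf1, a transcription factor induced by interferon-gamma, 0.48 (SE 0.13, adjusted p = 0.30). Ifngr1, a chain of the receptor, had -0.01 (SE 0.14, adjusted p = 0.98). Over 31 response genes other than Cxcl9 the median slope was 0.51, with 0 called. After treatment 10 of 32 response genes were called as higher in macrophages and 28 of 32 in monocytes. Of all tested genes 1.73% and 9.92% were. Irf1 was among those called in monocytes, at 0.77 (SE 0.17, edgeR adjusted p = 0.00598). The median log2 fold change of the response genes was 0.58 in macrophages and 0.86 in monocytes. It was 0.46 and 0.80 for the 10 lymphocyte genes, of which 0 were called. Whether the 2 sets differed in fold change was not tested. With the level of fibroblast markers, which was lower in treated libraries, as a covariate, edgeR called 0 of 32 in either cell type and 2 and 7 of all 15390 genes. In that fit 31 of 32 fold changes were above zero in macrophages, with a median of 0.46, and 32 of 32 in monocytes, with a median of 0.77, and Irf1 had 0.65 (SE 0.20, adjusted p = 0.13) in monocytes.

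**Figure D4:**
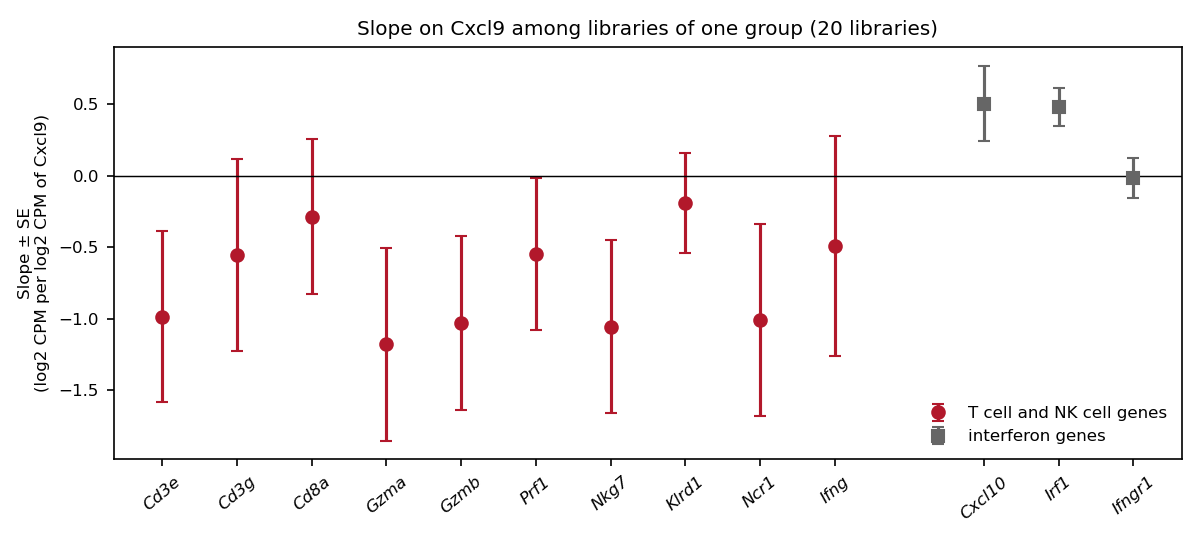
Slope on Cxcl9 among libraries of one group (log2 CPM per log2 CPM of Cxcl9, 20 libraries) with its SE, for the 10 lymphocyte genes (circles) and 3 interferon genes (squares). The 10 lymphocyte slopes lie between -1.18 and -0.19, while Cxcl10 lies at 0.51, Irf1 at 0.48 and Ifngr1 at -0.01.

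The other genes of T and NK cells had few calls after treatment, read against 4.65% of all tested genes called in macrophages and 25.3% in monocytes. Of 18 tested genes of the T cell receptor complex and T cell identity, 0 rose and 1 fell in macrophages and 0 rose and 1 fell in monocytes. That gene was Tcf7, a transcription factor of resting T cells, with -2.24 (SE 0.50, adjusted p = 0.040) in macrophages and -1.88 (SE 0.49, adjusted p = 0.011) in monocytes. Fibroblast markers were also lower in treated libraries, with a median log2 fold change of -2.85 over 12 markers in macrophages and -2.46 in monocytes. All 12 were detected, and their summed level was 45.8 to 315 CPM in anti-PD-L1 macrophages against 77.6 to 1798 CPM in control macrophages, and 52.8 to 433 CPM in anti-PD-L1 monocytes against 290 to 2752 CPM in control monocytes. With their level as a covariate Tcf7 was not called, at -0.75 (SE 0.36, adjusted p = 0.78) in macrophages and -0.61 (SE 0.34, adjusted p = 0.41) in monocytes. That fit called 2 of all 15390 genes in macrophages and 7 in monocytes. Of 12 tested cytotoxic granule and effector genes, 0 were called in either cell type. Of 18 NK receptor and factor genes, Klrk1, which encodes NKG2D, rose in monocytes by 0.98 (SE 0.23, adjusted p = 0.0071), and 0 were called in macrophages. Foxp3, the factor of regulatory T cells, was the 1 of 7 inhibitory and regulatory genes that rose in monocytes, by 0.33 (SE 0.12, adjusted p = 0.044), with 0 of 7 called in macrophages. With the fibroblast covariate neither was called in monocytes, where 7 of all 15390 genes were. The fold change of Klrk1 was not smaller in that fit, at 1.05 (SE 0.27, edgeR adjusted p = 0.10). That of Foxp3 was smaller, at 0.16 (SE 0.12, edgeR adjusted p = 0.58).

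Klrk1 averaged 94.5 ± 3.24 CPM in anti-PD-L1 and 48.2 ± 12.9 CPM in control monocytes, and Foxp3 17.0 ± 1.68 and 13.6 ± 1.96 CPM (SD, n = 5 each). Foxp3 averaged 22.4 ± 2.29 CPM in anti-PD-L1 and 20.3 ± 2.78 CPM in control macrophages (SD, n = 5 each), a small spread relative to its mean beside that of Cd3e and Cd3g, and it was higher in macrophages, where Cd3e and Cd3g were not called. Klrk1 ran from 90.3 to 98.2 CPM over the treated monocytes. Of the 22 NK genes 3 averaged over 10 CPM, Cd244a, Sh2d1b1 and Klrk1. In anti-PD-L1 macrophages these averaged 103, 89.8 and 86.8 CPM, against 1.52 CPM for Klrd1 and 0.408 CPM for Ncr1. The sum of the list came to 261 to 338 CPM in anti-PD-L1 macrophages and 176 to 272 CPM in control macrophages. For the cytotoxic genes it came to 6.33 to 46.9 CPM and 6.90 to 29.7 CPM. In anti-PD-L1 and control monocytes the NK list came to 263 to 380 CPM and 178 to 278 CPM. The cytotoxic genes came to 18.7 to 95.3 CPM and 12.2 to 36.3 CPM there.

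The genes most like the 10 in their course over the 20 libraries, by Pearson correlation of log2 CPM with the log2 sum after removing group means, were Gimap4 and Gimap6 at 0.944, Gimap3 at 0.926, Cd3d at 0.919, Thy1 at 0.914, Il2rb at 0.913, Sh2d2a at 0.892 and Ctsw at 0.888. This is a description over libraries that share pairs and depth. By the same measure Cxcl9 stood at -0.28, Cxcl10 at -0.36, Irf1 at -0.41 and Ifngr1 at 0.22. Of the 10 genes themselves, which make up the sum, Gzmb, Prf1 and Gzma were nearest to it at 0.975, 0.973 and 0.963, and Cd8a was farthest at 0.711.

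Markers of other cells were present at various levels. Of 8 conventional dendritic cell markers all were detected, with summed levels of 217 to 296 CPM in anti-PD-L1 macrophages, 159 to 246 CPM in control macrophages, 227 to 299.7 CPM in anti-PD-L1 monocytes and 152 to 272 CPM in control monocytes. Wdfy4 was the most abundant of the 8, with an average log2 CPM of 7.61, against 4.05 for Xcr1 and 3.17 for Clec9a. After treatment 2 of the 8 fell in macrophages, Zbtb46 with a log2 fold change of -2.11 (SE 0.49, edgeR adjusted p = 0.040) and Flt3 with -1.82 (SE 0.46, edgeR adjusted p = 0.041), and 0 were called in monocytes. Of all tested genes 4.65% were called in macrophages and 25.3% in monocytes, in either direction. With the fibroblast covariate edgeR called 2 of all 15390 genes in macrophages. The fold changes of Zbtb46 and Flt3 in that fit are not reported here. Without the covariate the median over the 8 in macrophages was 0.20, and Clec9a had 0.75 (SE 0.32, edgeR adjusted p = 0.16). Xcr1, a defining member, was not called, with averages of 36.9 ± 8.97 CPM in anti-PD-L1 and 18.2 ± 13.5 CPM in control macrophages, and 6.69 ± 1.40 CPM in anti-PD-L1 and 4.40 ± 2.26 CPM in control monocytes (SD, n = 5 each). Cd8a is also made by such cells, and their part in its level was not tested. Of 10 B cell markers 2 stayed under 10 counts in every library, and of 7 mast cell and basophil markers 3 did. Ly6g, which defines neutrophils, was at 0 to 0.0309 CPM in anti-PD-L1 and 0 to 0.0261 CPM in control macrophages, and at 0.236 to 0.802 CPM in anti-PD-L1 and 0.148 to 0.605 CPM in control monocytes. The summed level of the 10 neutrophil markers was 80.6 to 126 CPM in anti-PD-L1 and 51.2 to 88.5 CPM in control macrophages, and 262 to 578 CPM in anti-PD-L1 and 195 to 419 CPM in control monocytes. Mcpt8, which defines basophils, was at 0 in all macrophage libraries, and had 0 to 2 counts in anti-PD-L1 and 0 to 9 counts in control monocytes.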

How the data were processed

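RNA-seq of 20 libraries in 4 labelled groups of 5 was analysed. Per the labels' protocols, libraries were made from total RNA with a stranded kit, while the molecule label reads polyA RNA. The aligner was GSNAP and the build GRCm38, per the submitters' processing notes. Version, annotation, counting tool and strand setting: not given in the sources used here. Deposited values are, per the file headers, a count of uniquely aligned reads per gene model and an nRPKM, in which the authors divided counts by length and a library size factor. Counts were tested as deposited, and RPKM served only for levels between genes. Depth was 30191509 to 36514133 counts. Entrez numbers were matched to RefSeq symbols on GRCm38.p6 for 31049 of 36528 models (97.97% of counts), and the rest stayed in library sizes and tests.

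In R 4.3.3, edgeR 4.0.16 was run with filterByExpr (minimum count 10), TMM scaling and one mean per group over all 20 libraries, so that groups shared one estimate of spread. Genes were called at an adjusted p (Benjamini-Hochberg) under 0.05 over 15390 genes. The slope on Cxcl9 added log2 CPM of Cxcl9 (prior count 2) to this model for 15389 genes. The SE is the fold change divided by the root of its F statistic, and that of a difference of effects combines those of both effects. Alternatives were DESeq2 1.42.0, limma-voom (limma 3.58.1) with and without a block of neighbouring sample numbers, other scaling and filters, a fibroblast covariate, other interferon measures and leaving out each library. The scripts were tested on simulated data.

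Replicates were numbered in order of deposit, which only names them. The labels' sample numbers place a macrophage and a monocyte library side by side. In all 10 such pairs the deviations from group means were positively correlated (lowest 0.217), and 18 of 20 libraries correlated best with their own neighbour, so the block was used beside results where it changed a call. The labels do not say that libraries came from separate animals, and p-values therefore cover only the spread among these libraries, possibly a technical one. Libraries of a group were not copies of one another (lowest chi-square per degree of freedom 20.5).

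The 10 genes, the marker lists and the promoter motifs were chosen with earlier results of these data known. All 10 genes are reported whatever their result. Of the lists, up to 4 called genes per lymphocyte list and treatment comparison are named, with Cxcl9, Cxcl10, Irf1 and Ifngr1 always and the 8 genes most like the sum of the 10. Other genes named were chosen after their values were seen: Cd8b1, Cdc20b, Cd244a, Sh2d1b1, Fgl2, Xcr1, Clec9a, Wdfy4, Zbtb46, Flt3, Ly6g and Mcpt8. Some genes within these rules, and 1 alternative measure listed for the slope, are not reported here.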

Additional observations from a re-analysis of the deposited data

Results flagged for a closer look

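Single libraries were set apart by Dixon's criterion at the 95% level in 7 of 56 groups of 5 tested, where chance flags about 1 in 20. Among the lymphocyte genes, Cd3e stood high in control macrophage 4 (0.837 CPM) and in control monocyte 5 (0.994 CPM), which are libraries of neighbouring sample numbers. Cd8a stood high in anti-PD-L1 macrophage 2 (2.43 CPM). Gzma stood high in anti-PD-L1 monocyte 5, at 37.1 CPM, as did Prf1 in the same library, at 7.43 CPM. Among the interferon genes, Irf1 stood high in control macrophage 3 (472.8 CPM) and Ifngr1 in control macrophage 1 (270.4 CPM).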

How the results depend on the processing

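Klrd1 stayed lower in macrophages past the test in both comparisons under every alternative run. In anti-PD-L1 tumours the number of the 10 genes called was 1 with edgeR, 4 with limma-voom without a block, 7 with the replicate block of neighbouring sample numbers, 2 without both treated libraries 5 and 1 to 5 when 1 library was left out. In control tumours it was 1, with 3 under the replicate block, 2 without both treated libraries 5 and 1 to 2 when 1 library was left out. For the treatment comparisons and their difference 0 of the 10 were called under any alternative, leaving out 1 library included. The slope called 1 of the 10 on Cxcl10 in place of Cxcl9. Of 1697 values of single genes under an alternative, 137 had another sign than the value reported with neither past the test.

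Counts over all genes moved more. Treatment in macrophages called 715 genes, 1878 with DESeq2, 191 with limma-voom, 243 with the replicate block, 2 with fibroblast markers as a covariate, 54 without both treated libraries 5 and 14 to 1928 when 1 library was left out. In monocytes it called 3900, 7 with that covariate and 1883 to 5359 when 1 library was left out. The difference of effects called 0 genes, 7 with DESeq2, 8 with the replicate block and 0 to 41 when 1 library was left out. Between cell types 6784 genes were called in control tumours (6000 to 7363 when 1 library was left out) and 8293 in anti-PD-L1 tumours (7721 to 8643). The slope called 1 gene, 69 with DESeq2, 52 on the response genes, 5791 on Cxcl10, 0 to 75 when 1 library was left out, and 0 without a filter, with the replicate block, without both treated libraries 5 and in either cell type alone. The cause of these changes was not tested. Counts of 0 to 44 for Ifng and 2 to 56 for Ncr1 limit what their levels can show.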

Other observations

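Some genes from the lists of T and NK cell genes, chosen after their values were seen, differed between macrophages and monocytes past the test. Macrophages were higher than monocytes for Lag3, an inhibitory receptor, by 2.66 (SE 0.30) on the log2 scale in anti-PD-L1 tumours and 2.25 (SE 0.29) in control tumours, and for Il2ra, a chain of the interleukin-2 receptor, by 2.09 (SE 0.38) and 2.14 (SE 0.38). They were also higher for Cd4, by 2.12 (SE 0.43) and 2.19 (SE 0.43), and for Cxcr3, the receptor of the Cxcl9 product, by 1.99 (SE 0.32) and 1.81 (SE 0.32). S1pr5, a receptor for sphingosine-1-phosphate, was lower in macrophages, with -6.10 (SE 0.65) in anti-PD-L1 and -4.62 (SE 0.59) in control tumours. Tbx21, which encodes T-bet, was lower too, with -1.26 (SE 0.42) and -1.65 (SE 0.44). Each passed edgeR's adjusted p of 0.05 in both comparisons, in which 53.9% and 44.1% of all tested genes were called.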
